A study of Mus musculus with 2 samples.

Results

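Transcripts of 9 genes of the mitogen-activated protein kinase (MAPK) pathways were followed in mouse myeloid cells grown with or without Selinexor. The genes were taken by symbol from a list of 3 kinases (Map2k1, Mapk3 and Mapk8) and 6 dual-specificity phosphatases (Dusp1 to Dusp6), out of 32285 genes in the count matrices. The rule for choosing them used no measured value, although earlier results of these data were known when the list was made. All 9 symbols were found once, and 8 of the 9 had at least 50 unique molecular identifiers (UMIs, each standing for 1 captured transcript) over both libraries, the minimum for calling a gene measured. Dusp4, with 5 and 6 UMIs, fell under it.

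The cells were myeloid-derived suppressor cells (MDSCs) made in culture with recombinant mouse IL-6 and GM-CSF at 40 ng/mL each. They received either the solvent DMSO or 50 nM Selinexor, an inhibitor of exportin 1 (XPO1), which carries many proteins out of the nucleus. On day 4, live cells bearing CD11b were sorted, pooled after tagging and profiled on the 10x Genomics platform, giving 1 library per treatment. The names of both deposited matrices carry the letters WT, and that of the Selinexor library also the word DMSO; the groups were taken from the sample labels. The sources used here do not give strain, age or number of mice. With 1 library a treatment, the difference between treatments has no replicate check. The 95% intervals below cover the counting of UMIs only, so no p-value is given and a fold compares these libraries rather than the conditions.

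In the pathway these genes belong to, growth factor and cytokine receptors activate Ras and Raf, Raf activates the MEK kinases, and MEK phosphorylates ERK, which enters the nucleus and switches on immediate early genes. Map2k1 encodes MEK1 and Mapk3 encodes ERK1, while Mapk8 encodes JNK1, the kinase of a parallel stress branch. Dual-specificity phosphatases (DUSPs) remove the activating phosphates from MAPKs, and several are themselves induced by MAPK signalling, which makes them feedback brakes. Dusp1, Dusp2, Dusp4 and Dusp5 encode phosphatases of the nucleus, Dusp6 encodes a cytoplasmic phosphatase selective for ERK, and Dusp3 encodes a small phosphatase without the MAPK-docking domain of the others. GM-CSF signals through this pathway in myeloid cells. Transcript counts say nothing of the phosphorylation or activity of these proteins.

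The proximal promoters of 3 of the phosphatase genes are shown because Dusp1, Dusp5 and Dusp6 are the better counted of the inducible members. Each run is the 250 bases before the transcription start in RefSeq (GRCm38.p6, the assembly behind the mm10 build of the files), written 5′ to 3′ on the strand of the gene. The gene spans given further on come from GENCODE, whose Dusp1 span reaches upstream past this window and whose Dusp5 span begins within it, so the annotations differ in where these genes start. Capitals mark matches to TGACGTCA (the full cAMP response element), TGACG (its core, which also lies inside the full element), the CArG box bound by serum response factor, CCGGAA (an ETS core) or TGANTCA (an AP-1 element), searched on both strands. The windows are chr17:26508473-26508722 on the minus strand for Dusp1, chr19:53528895-53529144 on the plus strand for Dusp5 and chr10:99262981-99263230 on the plus strand for Dusp6.
Dusp1: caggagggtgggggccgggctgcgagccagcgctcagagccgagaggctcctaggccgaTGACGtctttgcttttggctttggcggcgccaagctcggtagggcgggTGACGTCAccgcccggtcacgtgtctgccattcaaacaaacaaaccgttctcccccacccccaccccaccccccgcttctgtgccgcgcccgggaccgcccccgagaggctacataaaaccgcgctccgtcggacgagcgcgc
Dusp5: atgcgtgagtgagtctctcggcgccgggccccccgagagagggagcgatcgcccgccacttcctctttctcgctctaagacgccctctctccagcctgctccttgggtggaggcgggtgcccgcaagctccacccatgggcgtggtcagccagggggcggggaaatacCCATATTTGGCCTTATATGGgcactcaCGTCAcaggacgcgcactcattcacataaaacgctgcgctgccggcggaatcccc
Dusp6: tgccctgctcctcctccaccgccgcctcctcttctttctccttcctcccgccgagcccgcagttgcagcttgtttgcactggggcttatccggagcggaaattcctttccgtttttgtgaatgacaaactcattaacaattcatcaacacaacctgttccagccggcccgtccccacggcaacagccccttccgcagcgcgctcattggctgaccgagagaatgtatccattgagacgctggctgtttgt
The Dusp1 window held TGACGTCA at -143 to -136 from the start and a separate TGACG at -191 to -187. The Dusp5 window held CArG boxes at -82 to -73 and at -72 to -63, next to each other, and 1 TGACG on the opposite strand at -55 to -51. None of the 5 motifs was found in the Dusp6 window, which says only that these letters are not in it. Among 32851 promoter windows of the same length, TGACGTCA occurred in 1.55%, a CArG box in 1.47%, TGACG in 17.8%, CCGGAA in 12.03% and TGANTCA in 6.75%. Of the 9 genes, 7 had a promoter entry. These matches describe the letters, not binding.

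After removal of barcodes with under 200 genes or at least 10% mitochondrial UMIs, 1743 DMSO and 1967 Selinexor cells were left, with 14222344 and 12841480 gene UMIs. The Selinexor cells were shallower, at a median of 3984 UMIs against 7788, and 783 of them held under 2000 UMIs against 314 DMSO cells. No barcode was shared between the libraries, which is no check of quality if barcodes were assigned to a library by their tag. The labelled cell type was checked against its markers. Itgam, which encodes CD11b, stood at 305.5 and 412.3 counts-per-million (CPM, UMIs scaled to the total of all gene UMIs) in DMSO and Selinexor, whereas Cd3e of T cells had 1 and 0 UMIs and Cd79a of B cells had 17 and 5. Ly6g, which is used to define granulocytic MDSCs, was low, at 97 and 49 UMIs. Levels below are CPM, computed for each library or each cluster from its summed UMIs.

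Of the kinases, the ERK1 gene Mapk3 (chr7:126759601-126765819, plus strand) had 1615 UMIs or 113.6 CPM in DMSO and 1861 UMIs or 144.9 CPM in Selinexor. This was 1.28-fold higher in the Selinexor library (interval 1.19 to 1.37). The MEK1 gene Map2k1 (chr9:64185770-64253631, minus strand) stood at 43.5 CPM in DMSO and 42.5 CPM in Selinexor, a fold of 0.98 (0.87 to 1.10), so no difference was detectable at this depth. The JNK1 gene Mapk8 (chr14:33377898-33447158, minus strand) was sparse, with 105 and 159 UMIs, and went from 7.38 to 12.4 CPM, or 1.68-fold (1.30 to 2.17).

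Among the phosphatases, Dusp6 (chr10:99263231-99267489, plus strand) had the largest fold of those with over 100 UMIs. It had 480 UMIs or 33.8 CPM in the DMSO library and 744 UMIs or 57.9 CPM in the Selinexor library, 1.72-fold higher (1.53 to 1.93). Dusp2 (chr2:127336159-127338376, plus strand), a phosphatase induced on activation of immune cells, was 2.41-fold higher (1.44 to 4.13), but on only 23 and 50 UMIs. Dusp5 (chr19:53529109-53542431, plus strand), a nuclear phosphatase selective for ERK, went from 12.02 to 16.9 CPM (1.41-fold, 1.14 to 1.73).

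Dusp1 (chr17:26505590-26562128, minus strand), which acts on p38 and JNK as well as ERK, had 958 UMIs or 67.4 CPM in DMSO and 1065 UMIs or 82.9 CPM in Selinexor (1.23-fold, 1.13 to 1.34). Dusp3 (chr11:101971143-101987013, minus strand) stood at 46.9 and 61.0 CPM (1.30-fold, 1.17 to 1.44). Dusp4 (chr8:34807297-34819894, plus strand), at 0.35 and 0.47 CPM, was too rare to compare. The annotation places Ergic1 (275 and 292 UMIs) over Dusp1 and Uchl4 (30 and 11 UMIs) over Map2k1, both on the opposite strand. The sources used here do not say whether the counting used strand, so a share of those reads could belong to either gene.

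A gene was called when its log2 ratio of (CPM + 1) between the libraries passed 1.5-fold. By this rule 3 of the 8 measured members were higher in the Selinexor library, Dusp2 (0.90), Dusp6 (0.76) and Mapk8 (0.67), and none was lower. Among all 10393 measured genes, 9.83% were called higher and 3.88% lower. The median log2 ratio was 0.42 over the 8 measured members and 0.13 over all measured genes. When the libraries were scaled by TMM or by median of ratios, the median of all genes moved by -0.12 and -0.13, Mapk8 went to 0.55 under both, below the fold, and Dusp2 and Dusp6 were still called. The call of Dusp2 was lost with the same mix of clusters in both libraries (0.43), with every cell weighted equally (0.33) and with a pseudocount of 5 CPM (0.43). Mapk8 was at 0.65 with the same mix of clusters, and at 0.55 and 0.49 in the other two settings. The split of called genes, 1022 higher and 403 lower, became 624 and 647 under TMM and 611 and 658 under median of ratios.

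**Figure D1:**
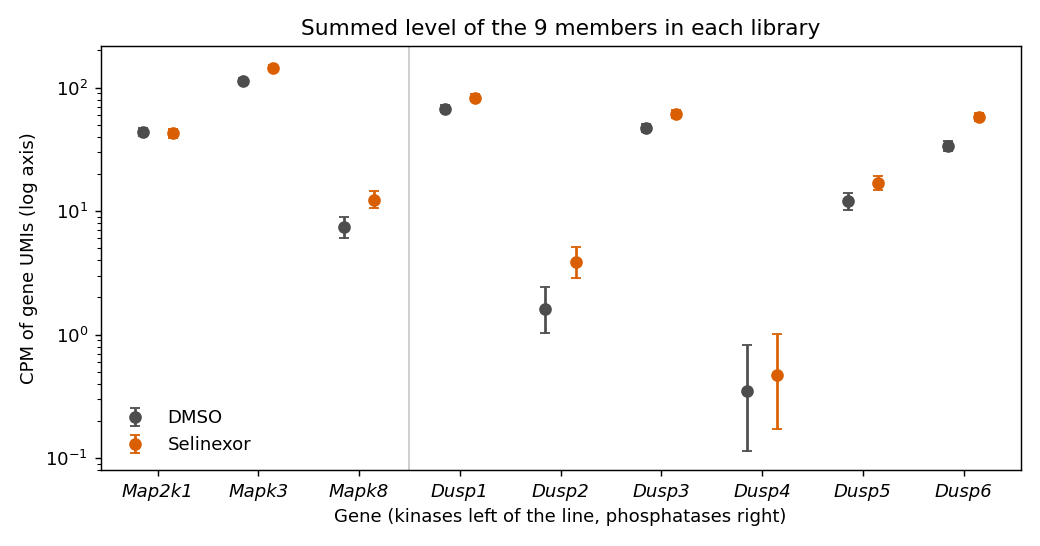
Level of each of the 9 genes in the DMSO and Selinexor libraries, in CPM on a log axis, with points for the library values and bars for the 95% counting interval. The Selinexor point of Dusp6 (57.9 CPM) lies above its DMSO point (33.8 CPM) with separated bars, while those of Map2k1 (43.5 and 42.5 CPM) overlap.

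To place the genes in cell states, the cells were clustered without the 9 genes, which gave 14 clusters. Names were given only from fixed marker lists. Cluster 11, led by Mpo, Ctsg and Elane, was early neutrophil-like; clusters 5 and 9, with Camp among their leading genes, were intermediate neutrophil-like. Clusters 2 (Mmp9, Cxcr2 and Il1b) and 0 (Siglecg, Csf1 and Csf3r) were late neutrophil-like. Of the 10 leading genes of cluster 0, 1 was on the late neutrophil list (Csf3r) and 1 on the basophil or mast cell list (Hdc). Cluster 3 (Retnlg, Olfm4 and Ltf) had markers of the intermediate and the late class and stayed unnamed, as did cluster 4 (led by the mitotic genes Anln and Top2a) and cluster 8 (Gpnmb and Apoc2). In a finer clustering (resolution 1.5), an intermediate neutrophil-like cluster led by Olfm4 and Retnlg held 91 DMSO and 124 Selinexor cells. A late neutrophil-like cluster with Mmp9 and Retnlg held 25 and 133. The part of such a mix in the folds and ratios of cluster 3 was not tested. Cluster 6, led by Ccl17 and C1qa, was macrophage-like but had as many dendritic cell as macrophage markers among its leading genes.

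The 2 libraries filled these states unequally, and 9 clusters had at least 20 cells in both. Cluster 0 held 143 DMSO and 695 Selinexor cells, cluster 2 held 319 and 28, and the monocyte-like cluster 1 held 7 and 344. The leading genes of cluster 1 included Fn1, which is on the monocyte list, and Mrc1, which is on that of macrophages, and the coarser clustering named the cluster led by those genes macrophage-like. Clusters 7 (234 and 4 cells) and 10 (184 and 19 cells) were almost wholly of the DMSO library. Folds are given only for the 9 clusters with at least 20 cells in each library. A cluster mostly of 1 library may still be that library rather than a type. This limit holds for the compared clusters 0 and 2, which share a name. The coarser clustering had a single late neutrophil-like cluster, of 438 DMSO and 766 Selinexor cells.

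Phosphatase transcripts were few in the early neutrophil-like state and many in the late ones, whereas kinase transcripts varied much less. In DMSO, Dusp1 to Dusp6 together stood at 73.2 CPM in cluster 11, 88.9 in cluster 5, 102 in cluster 9, 259 in cluster 3, 298 in cluster 2 and 475 in cluster 0. The summed kinases in the same clusters were at 158, 180, 165, 248, 173 and 222 CPM. Over the 11 clusters with at least 30 DMSO cells, the highest level was 6.48 times the lowest for the phosphatases and 1.98 times for the kinases. In Selinexor, the corresponding values over 10 such clusters were 4.06 and 2.21 times. The order of clusters is that of their marker classes, and no time or lineage was measured.

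Expressed as phosphatase UMIs per kinase UMI, a ratio of captured transcripts and not of protein, the DMSO values along that order went from 0.46 (interval 0.35 to 0.61) in cluster 11 through 0.49, 0.62, 1.04 and 1.72 to 2.14 (1.48 to 3.13) in cluster 0. In Selinexor the same clusters gave 0.85, 0.54, 1.08, 1.61, 2.09 and 1.87. Dusp1 supplied 65 of the 94 phosphatase UMIs of cluster 0 in DMSO. Without it, the DMSO values were 0.19, 0.24, 0.32, 0.36, 0.89 and 0.66, and cluster 2 stood highest of these 6. The intervals of clusters 11 and 5 overlapped in DMSO, as did those of clusters 2 and 0. Depth fell along the same order, from a median of 14292 DMSO UMIs per cell in cluster 11 to 1123 in cluster 0. The share of cells holding Mki67 or Top2a, markers of cycling, was 94.8% in cluster 11, 97.3% in 5, 50% in 9, 16.5% in 3, 6.63% in 2 and 5.61% in 0. The part of depth and of cycling in the ratio was not tested.

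Between the libraries as wholes, the ratio was 0.99 phosphatase UMIs per kinase UMI in DMSO and 1.12 in Selinexor, or 1.13 times higher (1.05 to 1.23). With the same mix of clusters in both libraries it was 1.06 times higher, and without cluster 1 it was 1.05 times. Leaving out Dusp1, the phosphatase with the most UMIs, it was 1.22 times higher (1.11 to 1.34). Within clusters, it was higher in Selinexor in 5 of the 9 and lower in 4. Without Dusp1 it was higher in 7 and lower in 2, and with a coarser clustering (resolution 0.5) higher in 3 and lower in 4. The interval lay above 1 in clusters 11 (1.84 times, 1.12 to 2.998), 9 (1.76, 1.13 to 2.73) and 3 (1.54, 1.13 to 2.11) and below 1 in none. Clusters 0 (0.88), 4 (0.97), 6 (0.80) and 8 (0.89) had ratios under 1 whose intervals included 1. Several of these values moved with the genes or cells used. Without Dusp1, clusters 0 and 8 turned to 1.18 and 1.63, cluster 2 turned from 1.21 to 0.71, and clusters 3 and 5 went to 2.32 (1.53 to 3.56) and 1.64 (1.14 to 2.36). With cells thinned to 2000 UMIs, cluster 4 was at 1.64 and cluster 11 at 1.33. Cluster 11 was at 3.01 without the 5% of cells with most UMIs. Cluster 3 was at 1.24 with only cells of at least 1000 genes and under 5% mitochondrial UMIs. Whether the clusters differ from each other in this was not tested.

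**Figure D2:**
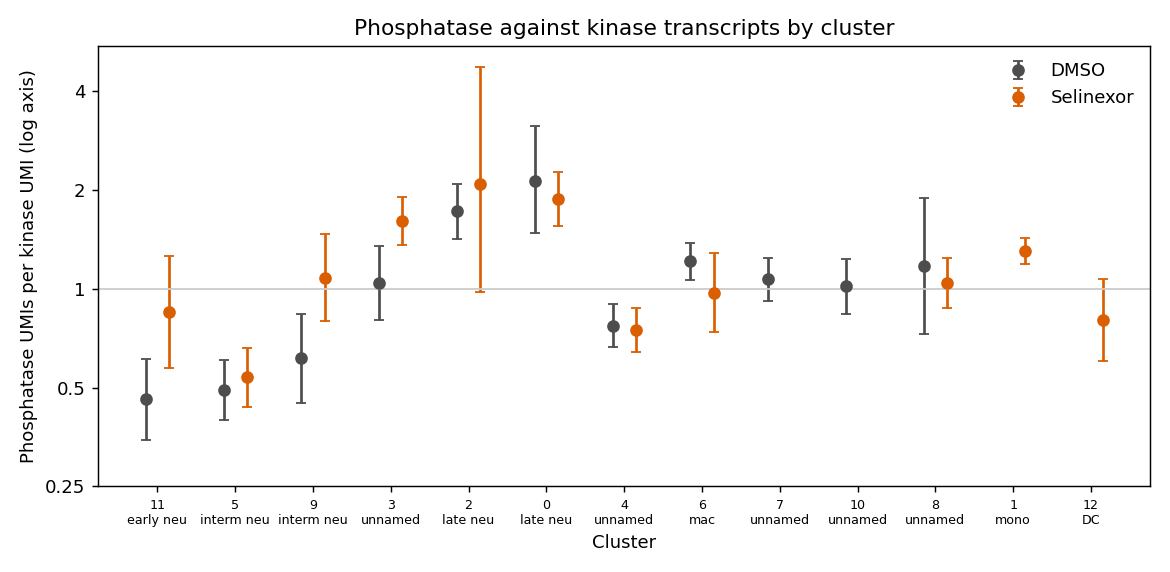
Phosphatase UMIs (Dusp1 to Dusp6) per kinase UMI (Map2k1, Mapk3 and Mapk8) in each cluster and library, on a log axis, with 95% counting intervals. Under the cluster numbers, neu stands for neutrophil-like, interm for intermediate, mac for macrophage-like, mono for monocyte-like and DC for dendritic cell-like. The early neutrophil-like cluster 11 stands at 0.46 in DMSO and 0.85 in Selinexor, and the late neutrophil-like cluster 0 at 2.14 and 1.87. In Selinexor, cluster 5 is lowest (0.54) and cluster 2 highest (2.09) of those shown.

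The sums behind the ratio differed by cluster. In cluster 3 the kinase sum was alike in the libraries (248 and 267 CPM, 1.07-fold, 0.86 to 1.35) while the phosphatase sum went from 259 to 429 CPM (1.66-fold, 1.35 to 2.05). In cluster 9 the kinase sum was at 0.79-fold (0.59 to 1.05) and the phosphatase sum at 1.38-fold (0.9997 to 1.91), both with intervals that included 1. In cluster 11 the kinase sum was at 0.82-fold (0.60 to 1.12) and the phosphatase sum at 1.51-fold (1.04 to 2.19). In cluster 4, in which 99.3% of cells held Mki67 or Top2a, both sums were higher: 161 against 220 CPM for the kinases (1.37-fold, 1.19 to 1.57) and 124 against 165 for the phosphatases (1.33-fold, 1.13 to 1.56). This left their ratio at 0.97 (0.78 to 1.20).

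Dusp6 was higher in Selinexor in most states. Its DMSO level was lowest in cluster 11 (7.91 CPM, 8 UMIs) and highest in cluster 0 (95.9 CPM, 19 UMIs). The level in Selinexor was above that in DMSO in 8 of the 9 clusters. The fold was 3.85 (2.40 to 6.49) in cluster 3, from 42.5 to 163 CPM, and 2.70 (1.31 to 5.99) in cluster 9, from 16.2 to 43.8 CPM. It was 1.78 (1.24 to 2.55) in cluster 4 and 1.64 (1.07 to 2.52) in cluster 5. In clusters 0, 2, 8 and 11 it was between 1.14 and 2.47 with intervals that included 1. Cluster 3 mixed intermediate and late markers, and the part of this in its fold was not tested.

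The macrophage-like cluster 6 was the exception for Dusp6, at 54.9 CPM in DMSO and 34.4 CPM in Selinexor (0.63-fold, 0.37 to 1.01). The finer clustering had its macrophage-like cluster almost wholly in DMSO (103 and 4 cells), and the part of this in the cluster 6 fold was not tested. The Dusp6 fold was above 1 at each depth of cell. It was 1.36-fold (0.96 to 1.98) among cells under 2000 UMIs, 1.90-fold (1.57 to 2.31) from 2000 to 10000 UMIs and 1.52-fold (1.29 to 1.80) at 10000 or more. With both libraries given the same mix of the 9 clusters, its log2 ratio was 0.63 against 0.76 over all cells.

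Dusp1 had a similar order of states but no common direction. In DMSO it lay between 43.5 and 48.6 CPM in clusters 11, 5, 9, 4, 7 and 10, whose intervals overlapped. It stood at 75.6 CPM in cluster 6, 143 CPM in cluster 2, 165 in cluster 8, 170 in cluster 3 and 328 in cluster 0. Selinexor gave 242 CPM in cluster 0 (0.74-fold, 0.55 to 0.99), 349 in cluster 2 (2.44-fold, 1.36 to 4.10) and 63.0 in cluster 8 (0.38-fold, 0.24 to 0.61). Cluster 2 had only 28 Selinexor cells and 16 Dusp1 UMIs in them, as many as 5 in 1 cell. The interval does not cover such bunching of UMIs in a cell. The DMSO cells of cluster 2 had a median of 2427 UMIs and the Selinexor cells 1394. In cluster 8 the DMSO cells had a median of 2140 UMIs and the Selinexor cells 7419. The part of these depth gaps was not tested.

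Across the 21 pairs of cluster and library with at least 30 cells, Dusp1 (log2 of CPM + 1) had a Pearson correlation of -0.89 with the log2 median UMIs per cell, and Dusp6 one of -0.68. For Dusp3 it was 0.20. These points share 2 libraries. The fold of Dusp1 changed side with depth, from 0.75 (0.60 to 0.94) under 2000 UMIs to 1.43 (1.24 to 1.66) from 2000 to 10000, and was 1.07 (0.94 to 1.22) above. With the same mix of clusters, its log2 ratio was 0.01 against 0.30 over all cells.

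**Figure D3:**
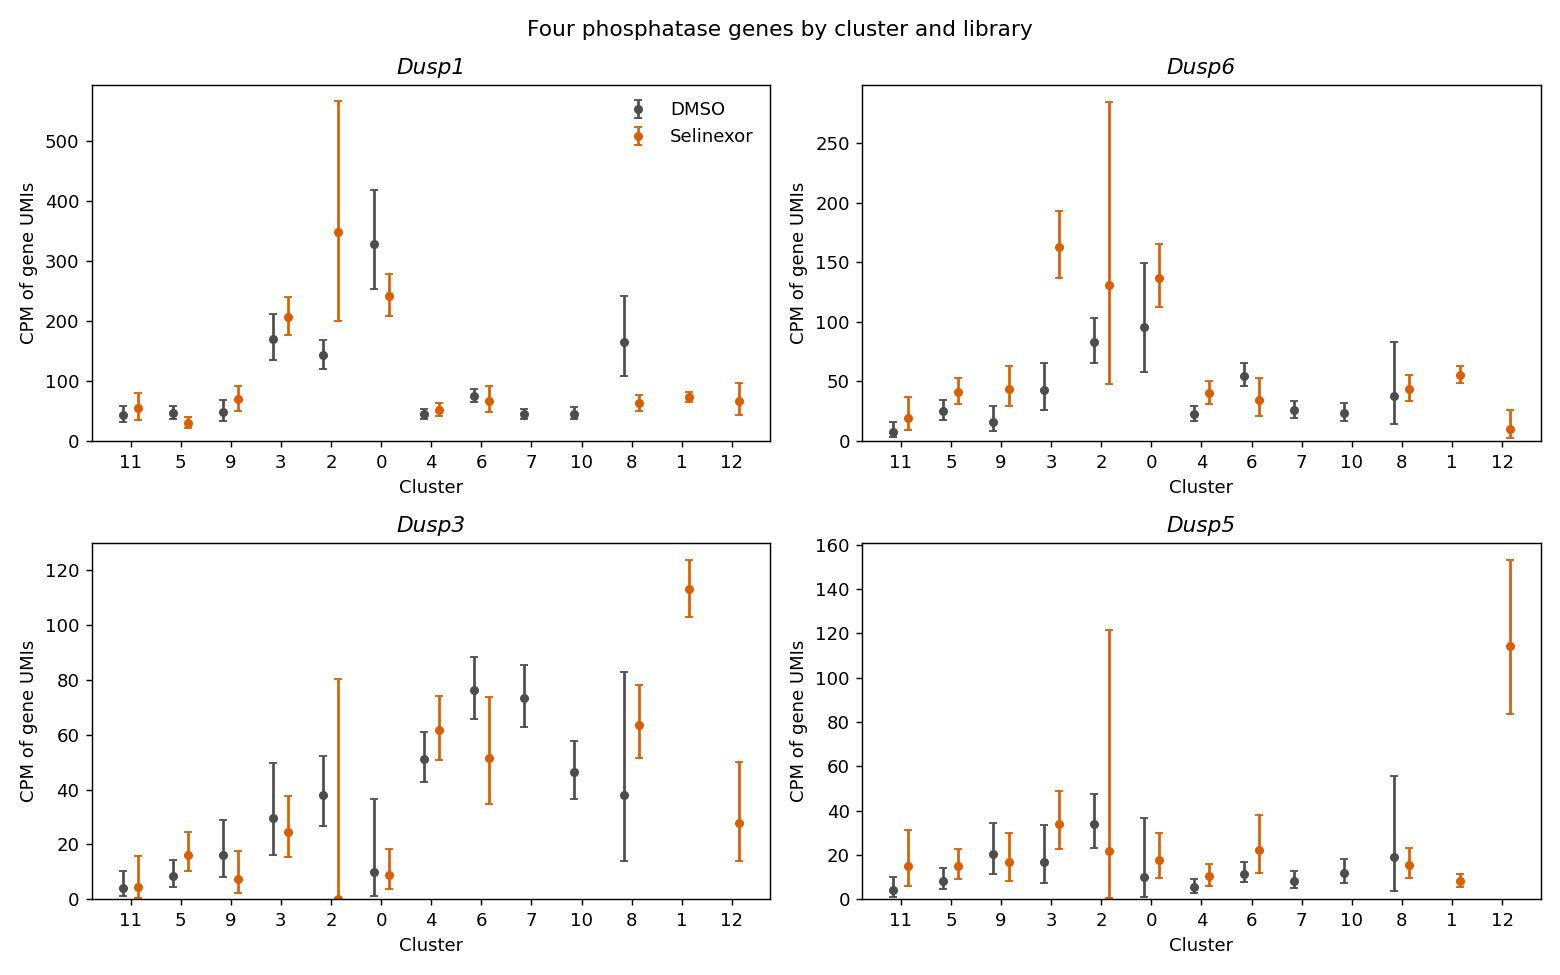
Levels of Dusp1, Dusp6, Dusp3 and Dusp5 by cluster and library in CPM, each panel on its own linear axis from 0, with points for summed cells, 95% counting intervals as bars, and points only where a library had at least 20 cells. Dusp6 runs from 7.91 CPM in DMSO cluster 11 to 95.9 CPM in cluster 0, with Selinexor points above DMSO in 8 of 9 compared clusters.

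Dusp3 marked other states than Dusp1 and Dusp6. It had 4 UMIs (3.96 CPM) in the DMSO cells of cluster 11, against 185 UMIs (76.4 CPM) in the macrophage-like cluster 6 and 73.5 CPM in cluster 7, which do not differ beyond counting error. In Selinexor it was highest in the monocyte-like cluster 1, at 113 CPM, which held 470 of its 783 UMIs. Without cluster 1 the log2 ratio of Dusp3 between the libraries was -0.35 instead of 0.37, and with the same mix of clusters it was -0.05. Within clusters it was higher in Selinexor in 4 and lower in 5. The interval excluded 1 in cluster 6 only (0.68-fold, 0.44 to 0.997).

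Dusp5 had its highest Selinexor level in a small dendritic cell-like cluster, although most of its UMIs lay elsewhere. Cluster 12, led by Ccl22, Ccl5 and Ccr7, had 45 of the 217 Dusp5 UMIs in 35 Selinexor cells, or 114 CPM (83.5 to 153), and 9 of the 171 in 5 DMSO cells. In DMSO, cluster 2 held 33 UMIs (33.7 CPM). The next level in Selinexor was 34.1 CPM (22.8 to 48.9) in cluster 3. Its fold was above 1 in 6 of the 9 compared clusters, with no interval that excluded 1. Its log2 ratio was 0.46 over all cells, 0.76 without cluster 1 and -0.08 when every cell was weighted equally.

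In DMSO, the sparse Dusp2 was counted mainly in early cells. The early neutrophil-like cluster 11 held 13 of its 23 DMSO UMIs (12.9 CPM) and 8 of its 50 Selinexor UMIs (17.4 CPM), a fold of 1.35 (0.49 to 3.52). Another 6 DMSO UMIs lay in cluster 0, where it was at 30.3 CPM in DMSO and 7.60 CPM in Selinexor (0.25-fold, 0.07 to 0.94). Cluster 1 supplied 15 of the Selinexor UMIs. Dusp4 had at most 2 UMIs in any cluster of either library.

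Of the members with UMIs in every such cluster, Mapk3 had the narrowest range. It went from 86.7 CPM in cluster 10 to 193 CPM in cluster 3 in DMSO and from 102 CPM in cluster 11 to 221 CPM in cluster 12 in Selinexor. It was higher in Selinexor in 7 of 9 clusters, and the interval excluded 1 in cluster 4 only, at 109 and 160 CPM (1.47-fold, 1.24 to 1.73). Mapk8 was 3.21-fold higher (1.63 to 6.71) in the same cluster, from 5.05 to 16.2 CPM on 13 and 30 UMIs. In cluster 0 it had no UMI in DMSO, which allows up to 15.1 CPM, a level above the 12.7 CPM of Selinexor.

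Map2k1 had points on the other side within most states. It was lower in Selinexor in 8 of the 9 clusters, although its library levels were alike, and its interval excluded 1 in cluster 8 only, at 95.4 and 42.9 CPM (0.45-fold, 0.25 to 0.85). Cluster 8 had 15 Map2k1 UMIs in DMSO, and the median depth there was 2140 UMIs in DMSO and 7419 in Selinexor. The part of this depth gap was not tested. By depth of cell, the Map2k1 fold was 0.70 (0.40 to 1.27) under 2000 UMIs, 1.01 (0.81 to 1.25) from 2000 to 10000 and 0.98 (0.85 to 1.13) above. With the same mix of clusters the log2 ratio of Map2k1 was -0.38, against -0.03 over all cells. The paralog Map2k2 (MEK2, 0.95-fold, 0.88 to 1.01), named after its values were seen, did not differ detectably between the libraries.

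Counted by cluster, the members' calls stood against a wider background than in the libraries. In the intermediate neutrophil-like cluster 5, 3 of 7 members with at least 20 UMIs were called higher (Dusp3, Dusp5 and Dusp6), where 11% of all genes were, and Dusp1 was called lower, where 7.71% were. Dusp3 and Dusp5 had 13 UMIs each there in DMSO, and 23 and 21 in Selinexor. Their DMSO UMIs alone would not have passed the minimum, and both intervals included 1. In cluster 9, Dusp6 was called higher and Map2k1 lower of 5 members, where 9.62% and 14.9% of all genes were. Dusp6 had 11 UMIs there in DMSO, too few for the minimum alone, and 29 in Selinexor. The interval of Map2k1 included 1. Cluster 11 had none of 4 members called, where 9.92% of genes were higher and 15.9% lower. In cluster 4, Mapk8, Dusp5 and Dusp6 of 7 members were called higher and none lower, against 18% and 6.19% of all genes. Mapk8 and Dusp5 had 13 and 14 UMIs there in DMSO, too few for the minimum alone, and the interval of Dusp5 included 1.

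In cluster 3, Dusp5 and Dusp6 of 6 members were called higher and none lower, against 19.8% and 9.84% of all genes. Dusp5 had 8 UMIs there in DMSO and 29 in Selinexor, and its interval included 1. In cluster 2, with its 28 Selinexor cells, Mapk3, Dusp1 and Dusp6 were called higher and Map2k1, Dusp3 and Dusp5 lower, against 23.1% and 32.9%. Those called lower had 43, 37 and 33 UMIs in DMSO and 1, 0 and 1 in Selinexor, so they passed the UMI minimum through DMSO alone. Of the cluster 2 calls, only that of Dusp1 had an interval that excluded 1, on 16 Selinexor UMIs, as many as 5 of them in 1 cell. In cluster 0, Map2k1 was called lower of 4 members and none higher, against 13.1% and 21.1%, and its interval included 1. Cluster 6 had Mapk8 and Dusp5 called higher of 7, against 12.3%, and Dusp6 called lower, against 17.3%. The intervals of all these cluster 6 calls included 1. Cluster 8 had Dusp3 called higher of 7, against 29.8%, and Map2k1 and Dusp1 called lower, against 17.8%. The Dusp3 call there rested on 6 UMIs in DMSO and 92 in Selinexor, with an interval of 0.74 to 4.67.

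Egr1, an immediate early transcription factor gene that ERK signalling induces, was lower in the Selinexor library, where Dusp6 was higher. It had 1169 UMIs or 82.2 CPM in DMSO and 462 UMIs or 36.0 CPM in Selinexor (0.44-fold, 0.39 to 0.49). It was below DMSO in all 9 compared clusters, with the interval below 1 in 5 of them (0, 3, 4, 5 and 6). In cluster 6 both genes were at a lower level in Selinexor, at 0.46-fold (0.31 to 0.65) for Egr1 and 0.63-fold for Dusp6. In cluster 3, where Dusp6 was 3.85-fold higher, Egr1 went from 159 to 106 CPM (0.66-fold, 0.48 to 0.92). Across the 21 pairs of cluster and library the levels of the 2 genes had a Pearson correlation of 0.68. Over the same pairs Dusp6 had a correlation of -0.68 with the log2 median UMIs per cell. Egr1 in DMSO was highest in the shallow clusters 0 and 2 (399 and 279 CPM). The part of depth in the correlation of the 2 genes was not tested.

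The immediate early genes Fos and Jun did not share this drop at the library level, at 1.10-fold (1.02 to 1.18) and 1.10-fold (1.03 to 1.18). Fos and Jun were each above 1 in 4 and below 1 in 5 of the 9 clusters. The interval lay below 1 in 3 clusters for each gene, and above 1 in 3 for Fos and in 2 for Jun. In cluster 6, where Egr1 and Dusp6 were both lower, Fos was at 0.30-fold (0.18 to 0.46) and Jun at 0.61-fold (0.43 to 0.83). Atf3, a stress-induced factor gene on a list of cell handling genes, went from 25.9 to 14.0 CPM (0.54-fold, 0.45 to 0.65). It was the only one of the 10 measured handling genes to pass the fold, and the part of handling in the Egr1 values was not tested.

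**Figure D4:**
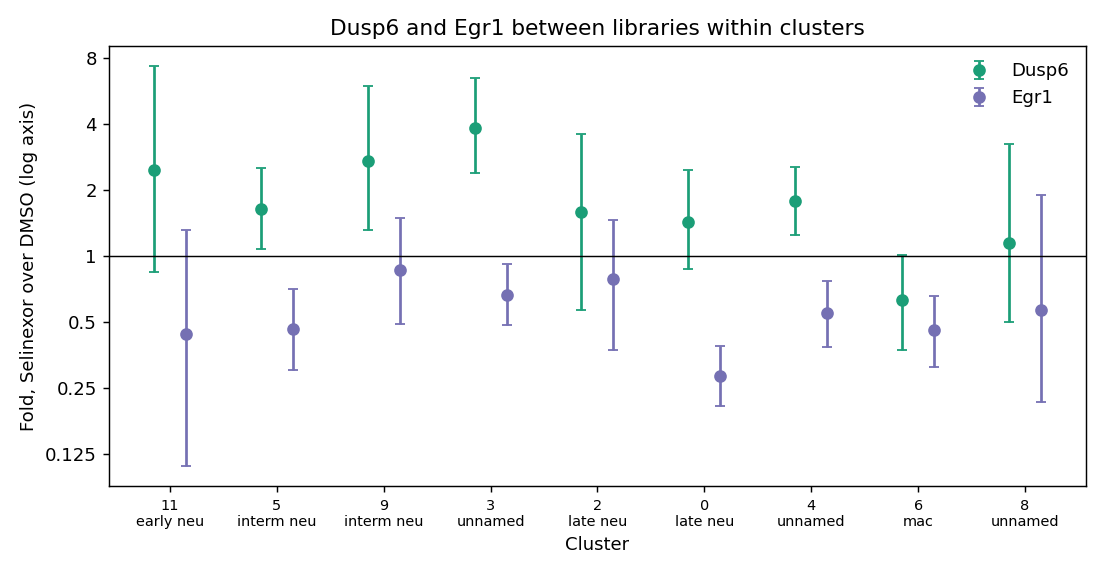
Fold of Selinexor over DMSO for Dusp6 and Egr1 in each compared cluster, on a log axis with 95% counting intervals. Dusp6 lies above 1 in 8 of 9 clusters and Egr1 below 1 in 9 of 9.

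The rest of the pathway was described from 11 lists. Without the 9 members they held 142 genes, of which 117 were measured, 10 called higher and 5 lower, beside 9.83% and 3.88% of all measured genes. Their median log2 ratio was 0.18, beside 0.13 for all measured genes. Under TMM and under median of ratios alike, 3 were called higher and 6 lower. Of the genes named here as called higher, Rras2 and Xpo1 were past the fold under both scalings and the others were not. In the Ras-Raf-MEK-ERK core, 1 of 12 was called, Rras2, a Ras relative, at 24 and 95 UMIs (log2 ratio 1.64). Among adaptors and activators upstream, 1 of 17 was called, Gab1, a docking protein gene (0.65). Among the brakes on Ras and Raf, 1 of 10 was called, the Ras GTPase activator gene Rasa3 (0.64).

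In the JNK and p38 branches, Mapk8 and Tab2 (0.60), an adaptor of the kinase TAK1, were called higher and 2 of 14 lower. Mapk13, which encodes p38 delta, had 1219 UMIs or 85.7 CPM in DMSO and 556 UMIs or 43.3 CPM in Selinexor (0.51-fold, 0.46 to 0.56). The other called lower was Map2k6. The further MAPK phosphatases Dusp7 (1.09-fold, 0.93 to 1.27) and Dusp16 (1.05-fold, 0.90 to 1.23), the 2 measured of 5, did not differ detectably. Of the other DUSP genes, 1 of 6 was called higher, and Dusp11, with the most UMIs, had a log2 ratio of 0.22. None of the 7 measured phosphatases of other families was called, with Ppp2ca, a catalytic subunit of PP2A, at 0.10. Under the other scalings Ppp2ca and Dusp7 were slightly below 0, at -0.03 and -0.01 under TMM.

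Scaffolds, anchors and carriers of ERK had 3 of 10 called higher, beside 9.83% of all genes. Xpo1, which encodes the target of Selinexor, went from 66.4 to 199.98 CPM (3.01-fold, 2.80 to 3.25) and was above 1 with its interval in all 9 compared clusters. Pea15a, a cytoplasmic anchor of ERK, and Iqgap1, a scaffold, each had a log2 ratio of 0.61, which TMM lowered to 0.48 for both, below the fold. Of the effector kinases and nuclear substrates 1 of 13 was called, the kinase gene Mknk2 (0.63). Of the immediate early and feedback targets, 1 of 19 was called higher, Fosl2 (0.66), and 2 lower, one of them Egr1 (-1.17).

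The genes most like each well-counted member in level across the 21 pairs of cluster and library were sought among 6975 genes. Dusp6 was most like Susd6 (Pearson r = 0.92), Abhd2 (0.90) and N4bp1 (0.89), and Dusp1 most like Rnf44 (0.91), Reep3 (0.90) and Esco1 (0.89). Dusp3 was most like Shtn1 (0.93), Vcan (0.92) and App (0.92). For Mapk3 the nearest was 4932438A13Rik (0.88), for Map2k1 it was Zfand2a (0.89) and for Dusp5 it was Zfand6 (0.79). Among the members themselves, Dusp1 and Dusp6 had r = 0.72 and Dusp3 and Mapk8 had 0.57. The points share libraries and differ in depth.

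How far each member's value rested on the processing differed. Dusp6 kept a log2 ratio between 0.63 and 0.97 in 15 alternative settings. Mapk8 ranged from 0.49 to 0.78, past the fold in 10 of them. Dusp3 and Dusp5 each had settings on either side of 0.

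**Figure D5:**
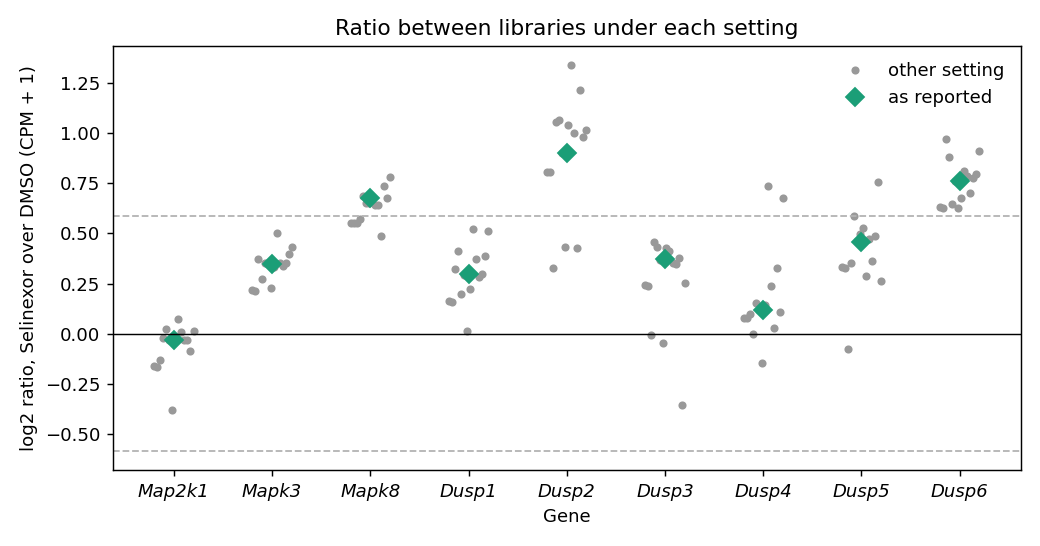
Log2 ratio of Selinexor over DMSO for each member, as reported (diamonds) and under each alternative setting (dots), with dashed lines at the 1.5-fold limit. All values of Dusp6 lie between 0.63 and 0.97, whereas those of Dusp3 run from -0.35 to 0.46.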

How the data were processed

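Single-cell RNA of CD11b+ MDSCs was measured in 1 DMSO and 1 Selinexor library. The authors deposited raw UMI counts per gene and cell barcode, made with Cell Ranger 6.1.2 on mm10 per the submitters' processing notes. The sources used here do not give annotation release, barcode selection or strand setting. The libraries were made from tagged cells pooled for capture, per the labels' protocols.

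A barcode was kept if it had 200 genes or more and its mitochondrial UMIs made up less than 10%. Doublets were not called. CPM used all gene UMIs of the cells summed. Log2 ratios used a pseudocount of 1 CPM, and genes with at least 50 UMIs were measured (20 within clusters). Intervals are exact Poisson for levels and conditional binomial for folds. Undetected genes were given a limit of 3 counts. Clusters came from scanpy 1.11.5 and leidenalg 0.10.2 (2000 variable genes without the members, 30 components, 15 neighbours, resolution 1.0). They were named from 15 marker lists, with at least 3 markers 2-fold higher, a scoring set after the data were seen.

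Named genes were all members; from each list, those past 1.5-fold with at least 100 UMIs (at most 4), or else the one with most UMIs; and the 3 genes most like each member with at least 300 UMIs. Others are said to be chosen after their values were seen, as were Egr1 by cluster, Fos, Jun, Dusp16 and Map2k6. The members and lists were chosen with earlier results of these data known. TMM came from edgeR 4.0.16 and median of ratios from DESeq2 1.42.0, used for scaling only. The fold calculation was tested on simulated data. Depth is given with the results.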

Additional observations from a re-analysis of the deposited data

Results flagged for a closer look

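Dusp1 differed in direction between clusters under the same contrast. Its fold of Selinexor over DMSO was 2.44 in cluster 2, with the counting interval above 1, and 0.74 in cluster 0, 0.64 in cluster 5 and 0.38 in cluster 8, with the interval below 1. With 1 library a treatment, the difference between these clusters was not tested.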

How the results depend on the processing

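No member was called lower under any of 17 alternatives. The count called higher, 3 as reported, was 1 with every cell weighted equally, 1 with a pseudocount of 5 CPM and 0 with a fold of 2. Genes of the pathway lists called higher, 10 as reported, numbered 3 under TMM, 3 under median of ratios, 17 with cells weighted equally, 6 when both libraries had 1 mix of clusters (5 clusters do not enter it), 16 without cells holding Mki67 or Top2a, 4 with a pseudocount of 5 CPM and 2 with a fold of 2. Those called lower, 5 as reported, numbered 9 with cells thinned to 2000 UMIs, 3 without cells holding Mki67 or Top2a, 3 with a pseudocount of 5 CPM, 3 with at least 200 UMIs, 2 with a fold of 2 and 8 without cluster 1. The phosphatase per kinase ratio between libraries, 1.13 as reported, was 1.26 with thinned cells and between 1.05 (without cluster 1) and 1.22 (without Dusp1) in the other settings. The clusters with a higher ratio in Selinexor, 5 of 9 as reported, were 3 of 7 at resolution 0.5 and 7 of 10 with clustering centred per library. Of all measured genes, 1022 were higher and 403 lower. These numbered 472 and 226 with a pseudocount of 5 CPM, 1556 and 799 with thinned cells, 213 and 117 with a fold of 2, 657 and 262 with at least 200 UMIs, and 1360 and 656 with cells weighted equally. The cause of these changes was not tested. Leaving out cluster 1, or all but cells of 2000 to 10000 UMIs, was chosen after seeing the data. No paired analysis was possible because each treatment has 1 library, and for the same reason no replicate could be left out. Depth limits Dusp2, Dusp4 and Mapk8 most.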
